A study of Homo sapiens with 9 samples.

Results

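The 75 genes described here encode the splicing factor families of the human spliceosome, measured in Cal-27, a human cell line derived from tongue squamous carcinoma. They were chosen by gene symbol alone: the SR proteins (SRSF followed by a number, 11 genes), the heterogeneous nuclear ribonucleoproteins (HNRNP, 21 genes), the SF3A and SF3B subunits (9), the snRNP proteins SNRPA to SNRPG (11), the U2AF genes (4), the CLK kinases (4), TRA2A and TRA2B (2) and the numbered PRPF genes (13). The expression table lists 16366 genes. All 75 members were among the 12470 genes with enough counts to be tested, so no member was lost to a filter on low values.

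The cells were wild type in all 3 groups. In the first group they spent 48 h in co-culture with exosomes, small membrane vesicles, from cancer-associated fibroblasts (CAF exosomes). In the second they spent 48 h with exosomes labelled hOMF, an abbreviation not spelled out in the labels. The third was the control, about which the labels say no more. Each group has 3 poly(A) RNA libraries. No label says that they came from separate cultures, so the p-values here measure only their spread, which may be technical.

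Introns are removed from pre-mRNA by the spliceosome, a machine of small nuclear ribonucleoproteins (snRNPs) that assembles anew on each intron. U1 pairs with the start of the intron, U2AF and U2 with its end, and the tri-snRNP of U4, U6 and U5 then forms the catalytic centre. SR proteins bind exons and mostly favour their inclusion, many hnRNPs bind introns or exons and often oppose it, and the balance between them sets which exons a cell keeps. CLK kinases phosphorylate SR proteins in the nucleus. Genes of both classes often control their own level through exons or introns that lead the transcript to decay.

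Levels are given as CPM, the count of a gene relative to its scaled library total. Levels of different genes are compared only as FPKM, which is also divided by transcript length. Changes are log2 fold changes, each with its SE (standard error), by the quasi-likelihood test of edgeR. The p-values were adjusted by Benjamini-Hochberg over all 12470 genes, and a gene was called at an adjusted p under 0.05. Library totals ran from 11185672 to 12779101 expected counts, of which the members took 0.910% to 1.02%. On the first principal component of all genes (39.7% of the variance) control replicate 3 lay farthest from the exosome libraries, and it was the highest control library for 48 of the 75 members. All 10 markers of squamous epithelium, the labelled cell type, were in the table. They summed to 6719 to 6819 TPM with CAF exosomes, 5745 to 6495 TPM with hOMF exosomes and 4581 to 5846 TPM in control. KRT17 made the largest part, averaging 3645, 3235 and 2633 TPM in the same order of groups. The keratin genes KRT14 (23.1, 15.8 and 10.1 TPM) and KRT6A (6.91, 5.31 and 4.47 TPM) were low. Of 15 fibroblast markers 14 were listed, summing to 368 to 406 TPM, 351 to 363 TPM and 239 to 302 TPM in the same order of groups, most of it SPARC, while COL3A1 and POSTN averaged 0, 0.0133 and 0 TPM. Of 7 leukocyte markers 5 were listed (45.7 to 51.7, 44.9 to 48.6 and 43.3 to 62.2 TPM), and of 5 endothelial markers 3 (6.36 to 7.17, 6.64 to 7.55 and 7.86 to 11.2 TPM). The part of these levels in the results below was not tested.

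Most of the splicing factor genes that were called against control were lower. With CAF exosomes 7 members were called higher and 20 lower than in control, 36% of the 75, beside 18.2% of all tested genes (9.51% higher, 8.64% lower) and 20.9% of genes averaging at least 20 CPM. With hOMF exosomes 6 were called higher and 22 lower, 37.3%, beside 23.2% of all tested genes (11.8% higher, 11.4% lower) and 25.9% of those averaging at least 20 CPM. The changes were small: the called members lay between -0.46 (HNRNPM) and 0.71 (CLK4) on the log2 scale with CAF exosomes, and between -0.63 (HNRNPAB) and 0.52 (PRPF39) with hOMF exosomes. The median over the members was -0.11 in both comparisons, beside -0.01 and 0.00 over all tested genes. In bulk RNA a lower level in every cell and fewer cells with a high level cannot be told apart.

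The called hnRNP, SNRP and CLK genes lay on 1 side each, and the called SF3, PRPF and SR genes on both; family direction was not tested. No hnRNP or SNRP gene was called higher in either comparison, nor under any of 20 alternative settings, and no CLK gene was called lower under any of them. With CAF exosomes the called members were 11 hnRNPs, 3 SNRP genes, 3 SF3 genes, U2AF2, PRPF19 and SRSF3 on the lower side, and 3 CLK genes, 2 PRPF genes, SF3B1 and SRSF5 on the higher side. With hOMF exosomes 8 hnRNPs, 4 SNRP, 3 SF3, 3 PRPF and 3 SR genes and U2AF2 were lower, while 2 PRPF genes, 2 SR genes, SF3B1 and CLK2 were higher. The control libraries are shared by both comparisons. Every library of the treated group lay above every control library for 13 members and below for 31 with CAF exosomes (58.7% together, beside 36.2% of all tested genes), and above for 10 and below for 32 with hOMF exosomes (56.0%, beside 39.5%). The numbers of calls depend on single libraries. Without control replicate 3, the members called were 3 higher and 9 lower with CAF exosomes, and 4 higher and 13 lower with hOMF exosomes. Over all tested genes the calls fell too, from 1186 higher and 1078 lower to 742 and 700 with CAF exosomes. With hOMF exosomes they fell from 1475 and 1421 to 997 and 1017. With CAF exosomes, leaving out CAF exosome replicate 1 or 3 also left 9 members called lower. Leaving out control replicate 2 left 2 members called higher and 12 lower, beside 756 and 633 of all tested genes. With hOMF exosomes, 14 were called lower without hOMF exosome replicate 1 and 13 without replicate 2, which also left 4 called higher.

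**Figure D1:**
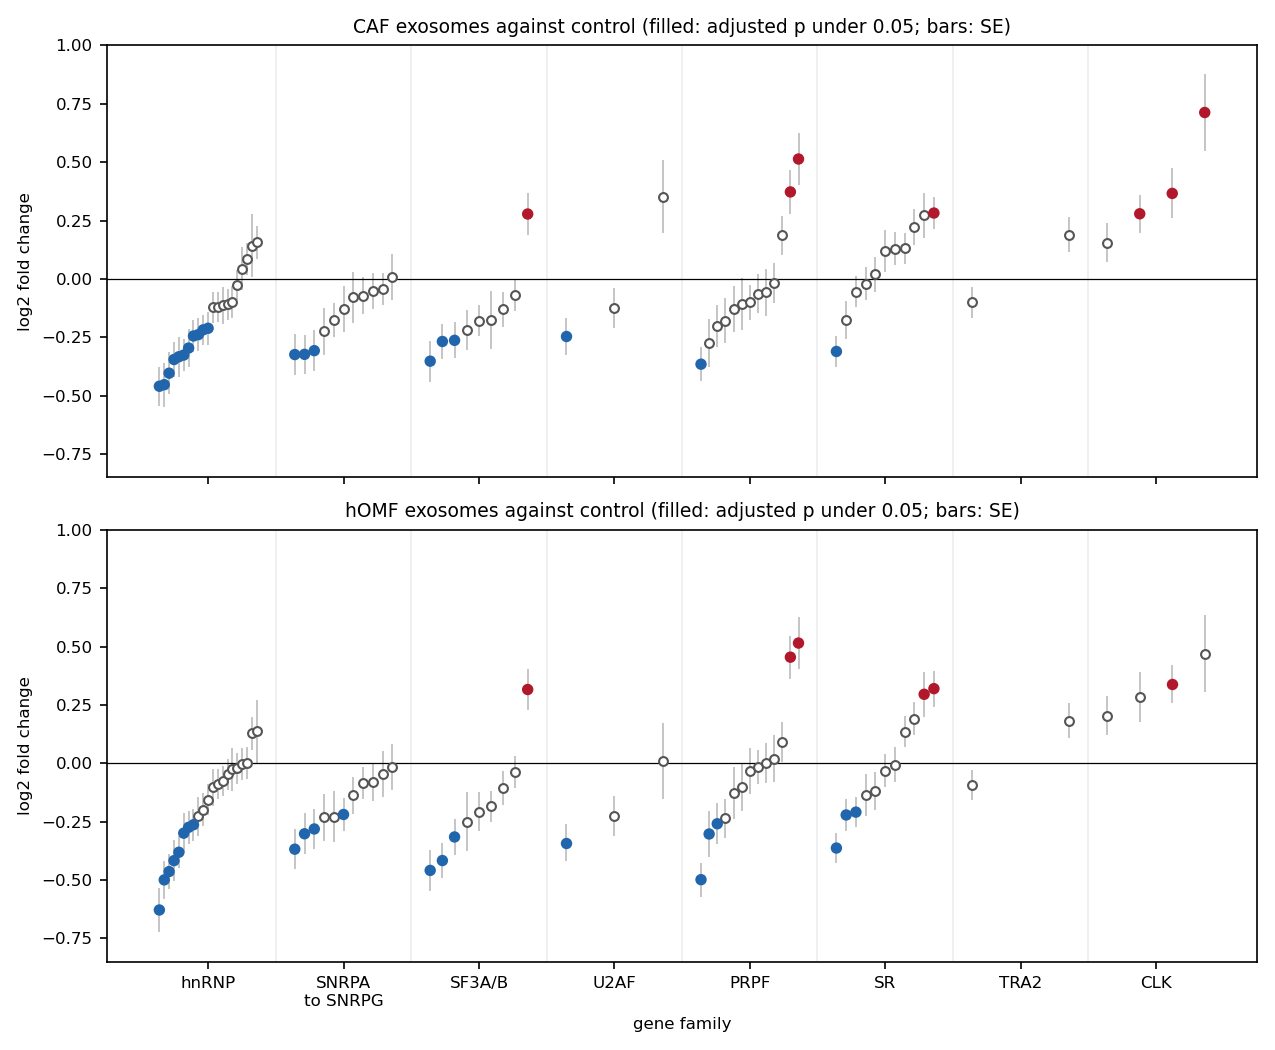
Log2 fold change against control of 74 members, by family, with CAF exosomes (top) and hOMF exosomes (bottom); each point is a gene, bars are SE, and filled points have an edgeR adjusted p under 0.05, red higher and blue lower. U2AF1, whose reads are shared with a copy, is left out. No filled hnRNP or SNRP point lies above 0 and no filled CLK point lies below it.

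The hnRNPs, which coat nascent transcripts, are the largest family and held the most called members. Of 21, 11 were lower with CAF exosomes (52.4%) and 8 with hOMF exosomes (38.1%), and the family median was -0.21 and -0.16. Called in either direction were 36% and 37.3% of all members, and 18.2% and 23.2% of all tested genes. With CAF exosomes the share called was larger for the CLK genes (75%). With hOMF exosomes it was larger for the SR (45.5%), SF3 (44.4%) and PRPF (38.5%) genes. HNRNPM is known from human breast cancer cells for the exon skipping that accompanies the epithelial-mesenchymal transition. It stood at 144, 156 and 138 CPM in CAF exosome libraries, 141, 145 and 139.6 CPM in hOMF exosome libraries, and 180.2, 195 and 226 CPM in control. All 6 exosome libraries were below all 3 control libraries, and HNRNPM changed by -0.46 (SE 0.08, edgeR adjusted p = 0.00167) with CAF exosomes and -0.50 (SE 0.08, edgeR adjusted p = 0.000591) with hOMF exosomes. HNRNPAB is a relative of hnRNP A and B that binds mRNA in nucleus and cytoplasm. Its level was 102, 123 and 114 CPM in CAF exosome libraries, 104, 97.6 and 98.1 CPM in hOMF exosome libraries, and 132, 158 and 174 CPM in control. It was lower in every exosome library, at -0.45 (SE 0.09, edgeR adjusted p = 0.00446) with CAF exosomes and -0.63 (SE 0.10, edgeR adjusted p = 0.000286) with hOMF exosomes, the largest fall of any member in that comparison apart from the uncertain U2AF1 described below. HNRNPR is an RNA-binding protein related to SYNCRIP. This gene stood at 76.3, 74.9 and 74.9 CPM in CAF exosome libraries, 66.2, 64.9 and 77 CPM in hOMF exosome libraries, and 91.5, 97.3 and 98.5 CPM in control. The 3 CAF exosome libraries lay within 2 CPM of each other, and the log2 change was -0.35 (SE 0.08, edgeR adjusted p = 0.00599) with CAF exosomes and -0.46 (SE 0.08, edgeR adjusted p = 0.000552) with hOMF exosomes.

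HNRNPL, which binds CA repeats, stood at 115, 118 and 113 CPM in CAF exosome libraries, 109.6, 108 and 116 CPM in hOMF exosome libraries, and 139, 141 and 154 CPM in control. Its log2 change was -0.33 (SE 0.07, edgeR adjusted p = 0.00462) with CAF exosomes and -0.38 (SE 0.07, edgeR adjusted p = 0.00111) with hOMF exosomes, with no overlap between exosome and control libraries. HNRNPU binds both RNA and chromatin as scaffold attachment factor A. Its level was 259.5, 258 and 257 CPM in CAF exosome libraries, 241, 266 and 262 CPM in hOMF exosome libraries, and 303, 323 and 399.6 CPM in control. Control replicate 3 was far above the other controls, and without it the change was the smallest of all alternatives but kept its sign and call (-0.28 with CAF exosomes and -0.29 with hOMF exosomes, beside -0.40 and -0.42 with all libraries). Under limma without a filter on low values the call of HNRNPU was lost in both comparisons.

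HNRNPH2, one of the hnRNPs that bind runs of G, stood at 46.9, 42.4 and 40.9 CPM in CAF exosome libraries, 39.9, 45.8 and 47.5 CPM in hOMF exosome libraries, and 56.7, 51.7 and 55.6 CPM in control. It changed by -0.33 and -0.30, with reads shared in part with other genes, so its level is uncertain. The call with CAF exosomes was lost without CAF exosome replicate 3 and under limma without a filter. The call with hOMF exosomes was lost under 7 of the 20 alternatives. These were library totals, limma in any form, and leaving out hOMF exosome replicate 1 or control replicate 1 or 3. HNRNPA1, the most abundant member of the family by FPKM, is a repressor of exon inclusion that opposes SRSF1. It stood at 539, 556 and 562 CPM in CAF exosome libraries, 571, 559.9 and 601 CPM in hOMF exosome libraries, and 651, 615 and 662 CPM in control. It was called lower with CAF exosomes at -0.22 (SE 0.07, edgeR adjusted p = 0.03) but not with hOMF exosomes, at -0.16 (adjusted p = 0.0951), and it shares reads with near-identical copies, so that both values are uncertain. The call was lost with library totals, and without any 1 of the CAF exosome libraries, hOMF exosome replicate 2, or control replicate 1 or 3.

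The other hnRNPs called lower were HNRNPF, HNRNPK, HNRNPA0 and HNRNPUL2. HNRNPF, which also binds G runs, changed by -0.24 with CAF exosomes and -0.26 with hOMF exosomes, and HNRNPK, which binds runs of C, by -0.21 and -0.27. HNRNPA0 at -0.30 and HNRNPUL2 at -0.24 were called only with CAF exosomes. With hOMF exosomes they stood at -0.23 (adjusted p = 0.0589) and -0.20 (adjusted p = 0.0519), and the difference between the exosome groups was not called for either (adjusted p = 0.904 and adjusted p = 0.947). Each of these 4 genes lost its call with CAF exosomes without control replicate 3 or CAF exosome replicate 1. HNRNPF lost it also without CAF exosome replicate 2, HNRNPA0 without CAF exosome replicate 3 or control replicate 2, HNRNPUL2 without control replicate 1 or CAF exosome replicate 2 or 3, and HNRNPK under 14 of the 20 alternatives, including each 1 that omits a CAF exosome or control library or hOMF exosome replicate 2. HNRNPA0 and HNRNPUL2 lost it under 8 and 9 of the 20 alternatives, limma in any form among them. With hOMF exosomes HNRNPF lost its call without hOMF exosome replicate 2 or control replicate 3, and HNRNPK without hOMF exosome replicate 1 or 2 or under limma in any form. Members that were not called include HNRNPC, which binds runs of U and was the fourth most abundant hnRNP by FPKM, at 320.0, 325 and 329 CPM in CAF exosome libraries, 343, 331 and 369.9 CPM in hOMF exosome libraries, and 339.6, 336 and 367 CPM in control. HNRNPH1, at 0.16 and 0.13, had the highest values in the family among genes with whole counts and was not called.

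The snRNP core was lower or did not pass the test. Of the 11 SNRP genes 3 were called lower with CAF exosomes and 4 with hOMF exosomes, and the family median was -0.13 and -0.22. SNRPB encodes Sm proteins B and B', parts of the ring that holds spliceosomal snRNA. It stood at 158, 188 and 179.7 CPM in CAF exosome libraries, 184, 165 and 161 CPM in hOMF exosome libraries, and 197, 221 and 239.9 CPM in control. It changed by -0.32 (SE 0.09, edgeR adjusted p = 0.0177) with CAF exosomes and -0.37 (SE 0.09, edgeR adjusted p = 0.00694) with hOMF exosomes, and all exosome libraries were below the controls. SNRPD1, another Sm ring protein, stood at 34.2, 33.8 and 32.3 CPM in CAF exosome libraries, 34.4, 32.9 and 36 CPM in hOMF exosome libraries, and 38.9, 40.3 and 46.2 CPM in control. This is a change of -0.32 and -0.28. SNRPA1, the U2 protein A', stood at 22.4, 25.8 and 24.9 CPM in CAF exosome libraries, 25, 24.7 and 23.7 CPM in hOMF exosome libraries, and 28.6, 29.3 and 32.5 CPM in control. The change was -0.31 and -0.30. SNRPD3 was called only with hOMF exosomes (-0.22, adjusted p = 0.0387). It stood at -0.18 with CAF exosomes (adjusted p = 0.0991). SNRPD2, also an Sm ring protein, was the most abundant of all 75 members by FPKM. It stood at 105, 129 and 126 CPM in CAF exosome libraries, 134, 115 and 106 CPM in hOMF exosome libraries, and 108, 121 and 129 CPM in control. It was not called in any comparison, at 0.01 and -0.01. Without control replicate 3 the calls of SNRPA1, SNRPD1 and SNRPD3 were lost in each comparison that had made them, and that of SNRPB with CAF exosomes. With CAF exosomes the calls of SNRPB and SNRPA1 also needed CAF exosome replicates 1 and 3 and control replicate 2, and that of SNRPD1 needed CAF exosome replicate 3. With hOMF exosomes the call of SNRPA1 needed hOMF exosome replicates 2 and 3, that of SNRPD1 hOMF exosome replicates 1 and 2, and that of SNRPD3 the same 2 libraries, CAF exosome replicate 3 and control replicate 1. Limma in any form ended both calls of SNRPD1 and that of SNRPD3. Limma without a filter ended both of SNRPB and that of SNRPA1 with hOMF exosomes. Library totals ended the calls of SNRPA1, SNRPD1 and SNRPD3 with hOMF exosomes.

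U2 snRNP recognition of the branch point needs the SF3A and SF3B complexes, and in each comparison 3 of their 9 genes were called lower while SF3B1 was called higher. The share called was 44.4% in each comparison, beside 18.2% of all tested genes with CAF exosomes and 23.2% with hOMF exosomes. SF3B1 is the subunit that holds the branch point and is mutated in several blood cancers. Its level was 308, 242 and 278 CPM in CAF exosome libraries, 270.4, 284 and 296 CPM in hOMF exosome libraries, and 246, 231 and 206 CPM in control. It was called higher with CAF exosomes at 0.28 (SE 0.09, edgeR adjusted p = 0.0399), where replicate 2 lay within the control range, and with hOMF exosomes at 0.32 (SE 0.09, edgeR adjusted p = 0.018), where the groups did not overlap. Leaving out control replicate 3 ended both calls, and the call with CAF exosomes was lost under 9 of 20 alternatives, including those without replicate 1 or 3 of the CAF exosome group, or replicate 2 of the hOMF exosome or control group. That with hOMF exosomes was also lost without hOMF exosome replicate 2.

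SF3B3, a scaffold subunit of the same complex, went the other way, at 135, 138 and 138 CPM in CAF exosome libraries, 114, 122 and 135 CPM in hOMF exosome libraries, and 157, 170.1 and 168 CPM in control. It changed by -0.27 (SE 0.07, edgeR adjusted p = 0.019) with CAF exosomes and -0.42 (SE 0.07, edgeR adjusted p = 0.000934) with hOMF exosomes, where the call held under all 20 alternatives. SF3B4, which contacts pre-mRNA near the branch point, stood at 91.8, 107 and 102 CPM in CAF exosome libraries, 101, 93 and 86.4 CPM in hOMF exosome libraries, and 115, 141 and 128 CPM in control. It changed by -0.35 and -0.46 with no overlap. SF3A1, a subunit of SF3A, changed by -0.26 and -0.32. Leaving out CAF exosome replicate 1 or control replicate 2 ended the calls of SF3B3, SF3B4 and SF3A1 with CAF exosomes. Leaving out CAF exosome replicate 3 or control replicate 3 ended those of SF3B3 and SF3A1, and leaving out CAF exosome replicate 2 that of SF3A1. Limma in any form also ended those of SF3B3 and SF3A1. Limma without a filter ended that of SF3B4, and that of SF3A1 with hOMF exosomes. SF3B6, which sits at the branch point, was the most abundant of the 9 by FPKM. It stood at 51, 56.3 and 55.8 CPM in CAF exosome libraries, 54, 56.8 and 55 CPM in hOMF exosome libraries, and 56.4, 62.4 and 59.9 CPM in control. It was not called, at -0.13 and -0.11.

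U2AF2, the large subunit of U2AF that binds the polypyrimidine tract, was lower in both comparisons. It stood at 142, 159 and 163 CPM in CAF exosome libraries, 142, 153 and 140.3 CPM in hOMF exosome libraries, and 166, 188 and 197 CPM in control. The change was -0.25 (SE 0.08, edgeR adjusted p = 0.0404) with CAF exosomes and -0.34 (SE 0.08, edgeR adjusted p = 0.00624) with hOMF exosomes. The call with CAF exosomes was lost under 12 of the 20 alternatives, including each 1 that omits a CAF exosome library or control replicate 2 or 3, while the call with hOMF exosomes was lost under 1. The small subunit, which reads the AG at the end of the intron, is listed under U2AF1 and the near-identical copy U2AF1L5, and the authors' counting shared reads between them. U2AF1 had at most 1.67 CPM in any exosome library, against 0.545, 0.903 and 12.1 CPM in control, so that 1 control library carries its level. U2AF1L5, the most abundant entry of the family by FPKM, stood at 56.2, 65.9 and 64.8 CPM in CAF exosome libraries, 60.3, 52.9 and 61.3 CPM in hOMF exosome libraries, and 66.9, 72.8 and 64.3 CPM in control. Summed over both entries, a step added after the values were seen, the small subunit stood at 57.3, 66.0 and 66.5 CPM in CAF exosome libraries, 61.5, 54.1 and 61.5 CPM in hOMF exosome libraries, and 67.5, 73.7 and 76.4 CPM in control. The sum changed by -0.20 (SE 0.08, edgeR adjusted p = 0.111) with CAF exosomes and -0.30 (SE 0.08, edgeR adjusted p = 0.0179) with hOMF exosomes. U2AF1L4, a shorter paralogue, was not called, at 0.35 (adjusted p = 0.13) and 0.01 (adjusted p = 0.974).

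Among the 13 PRPF genes, named after yeast pre-mRNA processing mutants, the 2 that rose are counterparts of yeast U1 snRNP proteins, and those that fell encode proteins of the tri-snRNP or the PRP19 complex. For PRPF39 the levels were 30.8, 23.3 and 27 CPM in CAF exosome libraries, 28.3, 26.2 and 26.7 CPM in hOMF exosome libraries, and 21.4, 17.6 and 17.9 CPM in control. It rose by 0.51 (SE 0.11, edgeR adjusted p = 0.00531) with CAF exosomes and 0.52 (SE 0.11, edgeR adjusted p = 0.00371) with hOMF exosomes, and both calls held under all 20 alternatives. PRPF40B, whose yeast counterpart also belongs to U1, stood at 30.5, 28.5 and 27.7 CPM in CAF exosome libraries, 31.4, 32.5 and 28 CPM in hOMF exosome libraries, and 24.3, 20.7 and 22 CPM in control. It rose by 0.37 and 0.45. Its call with CAF exosomes was lost only without control replicate 2, and its log2 value over the 20 alternatives was 0.32 to 0.44. Whether reads were counted by strand was not given in the sources used here. Exons of FKBP3 on the opposite strand overlap 13.2% of the exon bases of PRPF39, and those of FMNL3 and FAM186B 28% and 20.7% of PRPF40B. If strand was ignored, counts of these overlapping genes could be mixed, which was not tested.

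PRPF19, the most abundant PRPF gene by FPKM, is the ubiquitin ligase at the heart of the complex that carries its name. It stood at 106, 111 and 112 CPM in CAF exosome libraries, 95.5, 96.3 and 108 CPM in hOMF exosome libraries, and 137, 137 and 150.2 CPM in control. It fell by 0.37 (SE 0.07, edgeR adjusted p = 0.00337) on the log2 scale with CAF exosomes and by 0.50 (SE 0.07, edgeR adjusted p = 0.000224) with hOMF exosomes, with no overlap of libraries and with both calls held under all 20 alternatives. PRPF8, the central protein of U5, stood at 325, 277 and 315 CPM in CAF exosome libraries, 254, 301 and 326 CPM in hOMF exosome libraries, and 338, 362 and 355 CPM in control. It was called lower with hOMF exosomes (-0.26, adjusted p = 0.0447), a call lost under 11 of the 20 alternatives, including those without hOMF exosome replicate 1 or 2, CAF exosome replicate 3 or any control library. PRPF4, a protein of U4 and U6, was likewise called only with hOMF exosomes, at -0.30 (adjusted p = 0.0345), and lost its call under 9 (hOMF exosome replicate 1 or 2, CAF exosome replicate 3, or control replicate 2 or 3 left out, among others). PRPF3, PRPF6 and PRPF31, tri-snRNP proteins whose genes are mutated in human retinitis pigmentosa, were not called, with values between -0.13 and -0.06 with CAF exosomes and between -0.24 and -0.03 with hOMF exosomes.

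The SR proteins were split between both directions. SRSF3 is a small SR protein that also takes part in mRNA export and the choice of polyadenylation site. Its level was 109, 112 and 103 CPM in CAF exosome libraries, 104, 105 and 103 CPM in hOMF exosome libraries, and 133, 130.3 and 139 CPM in control. It was lower in all exosome libraries, at -0.31 (SE 0.07, edgeR adjusted p = 0.00481) with CAF exosomes and -0.36 (SE 0.07, edgeR adjusted p = 0.00117) with hOMF exosomes, and both calls held under all 20 alternatives. SRSF5, an SR protein that enhances exon inclusion, stood at 183, 184 and 177 CPM in CAF exosome libraries, 175, 169.8 and 167 CPM in hOMF exosome libraries, and 162, 147 and 139 CPM in control. It was higher with CAF exosomes at 0.28 (SE 0.07, edgeR adjusted p = 0.012), a call lost without control replicate 2 or 3, and stood at 0.19 with hOMF exosomes (adjusted p = 0.0584). SRSF11 is an SR-related protein that interacts with U2AF. It stood at 322, 296 and 278 CPM in CAF exosome libraries, 350.0, 315 and 295 CPM in hOMF exosome libraries, and 258, 255 and 256 CPM in control. With hOMF exosomes it was higher by 0.32 (SE 0.08, edgeR adjusted p = 0.00765), a call held under all 20 alternatives. With CAF exosomes it stood at 0.22 (adjusted p = 0.0561), although there too all 3 libraries were above the controls.

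SRSF4, a large SR protein, stood at 132, 164 and 149 CPM in CAF exosome libraries, 162, 163 and 127 CPM in hOMF exosome libraries, and 121, 123 and 125 CPM in control. It was called higher with hOMF exosomes (0.30, adjusted p = 0.0364), with 1 of the 3 libraries close to the controls, and the call was lost under 7 of the 20 alternatives, including those without hOMF exosome replicate 1 or 2, CAF exosome replicate 3 or any control library. SRSF1, the founding SR protein and a known oncogene product, and SRSF6 were called lower only with hOMF exosomes. SRSF1 stood at 130.0, 132 and 122 CPM in CAF exosome libraries, 115, 119.5 and 112 CPM in hOMF exosome libraries, and 132, 133 and 135 CPM in control. SRSF6 stood at 132, 125 and 116 CPM in CAF exosome libraries, 111, 109 and 105 CPM in hOMF exosome libraries, and 129, 121 and 129 CPM in control. Their values were -0.21 and -0.22 with hOMF exosomes, and -0.06 and -0.02 with CAF exosomes. The calls were lost under 11 (SRSF1) and 9 (SRSF6) of the 20 alternatives. Library totals and limma in any form were among these, as was leaving out any 1 hOMF exosome library or control replicate 1 or 3. That of SRSF1 was lost also without control replicate 2. SRSF2, the most abundant SR gene by FPKM, was not called against control. The SR-like regulators TRA2A and TRA2B, which bind GA-rich exon sequences, were not called either. TRA2A stood at 71.6, 66.8 and 68.3 CPM in CAF exosome libraries, 69.2, 72.1 and 64.4 CPM in hOMF exosome libraries, and 63.1, 61.1 and 57.1 CPM in control. All exosome libraries were above control (0.19 and 0.18, adjusted p = 0.0844 and adjusted p = 0.0826), and TRA2B, the more abundant by FPKM, stood at -0.10 and -0.09.

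All 4 CLK genes, which encode kinases of SR proteins, had positive values in both comparisons. CLK4, the least abundant of them by FPKM, stood at 19.3, 15.1 and 13.5 CPM in CAF exosome libraries, 13.6, 14.1 and 12.7 CPM in hOMF exosome libraries, and 12.6, 8.22 and 8.37 CPM in control. It was higher with CAF exosomes at 0.71 (SE 0.16, edgeR adjusted p = 0.00751), the largest rise of any member, and the call held under all 20 alternatives. With hOMF exosomes its libraries were also above the controls, but at 0.47 (SE 0.17, edgeR adjusted p = 0.0508) it missed the threshold. CLK1 is known for transcripts that keep introns in the nucleus until stress induces their splicing. It stood at 65.3, 58.6 and 56.6 CPM in CAF exosome libraries, 62.5, 59.9 and 48.5 CPM in hOMF exosome libraries, and 52.4, 47.2 and 40.6 CPM in control. It was called higher with CAF exosomes, at 0.37 (SE 0.11, edgeR adjusted p = 0.0269). That call was lost without CAF exosome replicate 1 or control replicate 2 or 3, and under limma without a filter. With hOMF exosomes CLK1 stood at 0.28 (edgeR adjusted p = 0.0647). CLK2 stood at 46.6, 53.5 and 48.6 CPM in CAF exosome libraries, 53.7, 54.4 and 47.3 CPM in hOMF exosome libraries, and 40.9, 40.5 and 41.2 CPM in control. Its 3 control libraries lay within 1 CPM of each other. It rose by 0.28 (SE 0.08, edgeR adjusted p = 0.0274) with CAF exosomes and 0.34 (SE 0.08, edgeR adjusted p = 0.00743) with hOMF exosomes. The call with CAF exosomes was lost without any 1 control library or CAF exosome replicate 2 or 3, and the call with hOMF exosomes held under all 20 alternatives. CLK3, the most abundant CLK gene by FPKM, was not called, at 0.16 (adjusted p = 0.202) and 0.20 (adjusted p = 0.083).

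**Figure D2:**
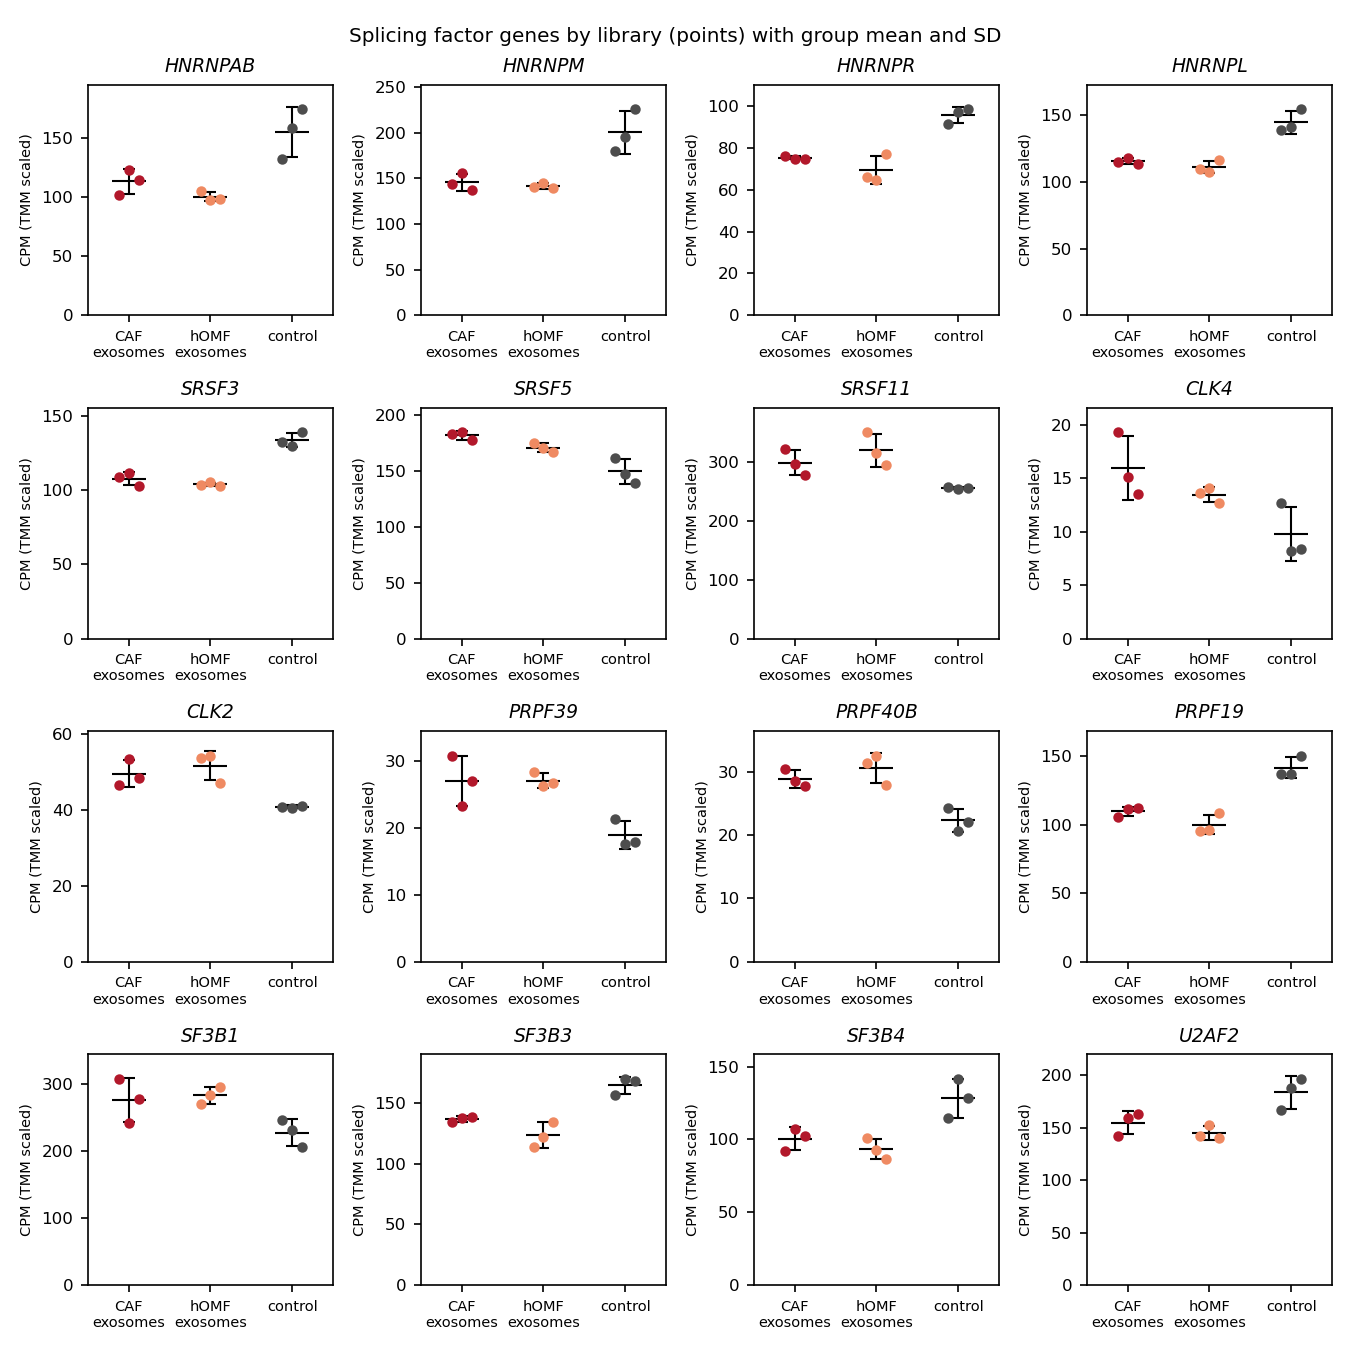
Level of 16 members in each library, in CPM after TMM scaling from 0; points are libraries, from left to right CAF exosomes, hOMF exosomes and control, and lines are the group mean and SD (n = 3). HNRNPAB, HNRNPM, SRSF3 and PRPF19 are lower in all 6 exosome libraries than in any control library, and CLK4, PRPF39 and PRPF40B are higher.

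The summed levels of the families are given without a test. The TPM of the 21 hnRNP genes summed to 2260 ± 47.9 with CAF exosomes, 2309 ± 152 with hOMF exosomes and 2495 ± 119 in control (SD, n = 3 each). The CLK genes summed to 196 ± 6.80, 198 ± 13.9 and 154 ± 12.2 TPM in the same order, and the SR genes to 1161 ± 46.0, 1130 ± 11.1 and 1068 ± 46.0 TPM. All 75 members summed to 6922 ± 77.3 TPM with CAF exosomes, 6927 ± 187 TPM with hOMF exosomes and 7213 ± 333 TPM in control, so the total differed by less than the spread between control libraries. By library, the median hnRNP lay below all controls in every exosome library, and the median CLK gene lay above all controls in every one of them.

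**Figure D3:**
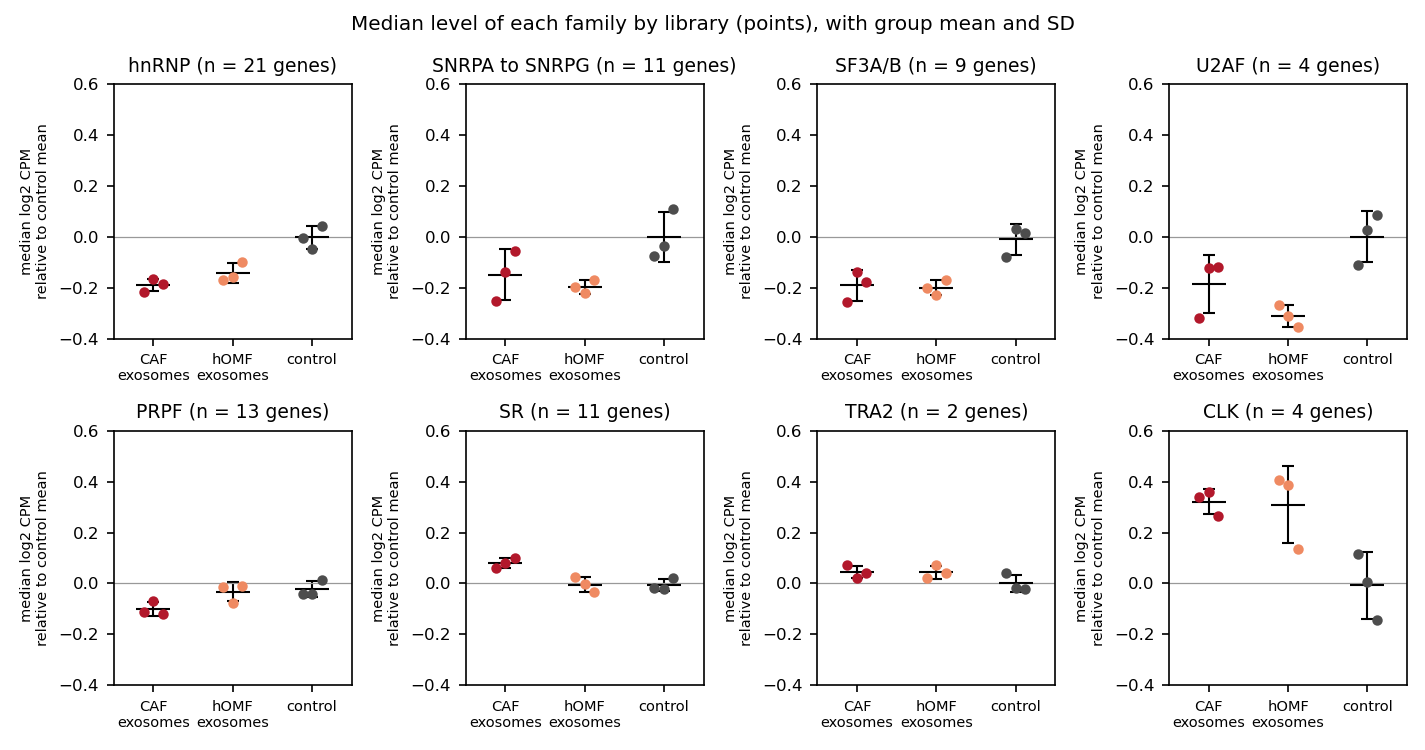
Median over the members of each family of log2 CPM relative to the gene's control mean, by library (points), with group mean and SD (n = 3), for CAF exosomes, hOMF exosomes and control from left to right. The hnRNP medians of all 6 exosome libraries lie below the control libraries.

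Between the exosome groups no member was called. In CAF exosome cells against hOMF exosome cells 0 of 75 members passed an adjusted p of 0.05 with edgeR, beside 0.016% of all tested genes (0.00802% higher, 0.00802% lower), and 0 passed with DESeq2 or any other alternative. An unadjusted edgeR p under 0.05 was found for 5 of the 75 members, beside 947 of all 12470 tested genes. The median over the members was 0.02, beside -0.00 over all genes. The libraries of the 2 groups did not overlap for 9 members (12%, beside 13.7% of all tested genes), and 5 of those were SR genes with all CAF exosome libraries above all hOMF exosome libraries. They were SRSF2, at 0.25 (SE 0.09, edgeR adjusted p = 0.518), SRSF6 at 0.20 (edgeR adjusted p = 0.483), SRSF7 at 0.16 (edgeR adjusted p = 0.611), SRSF1 at 0.15 (edgeR adjusted p = 0.606) and SRSF5 at 0.09 (edgeR adjusted p = 0.829). SRSF2, which recognises both C-rich and G-rich exon motifs, stood at 268, 308 and 280.4 CPM in CAF exosome libraries, 258, 236 and 224 CPM in hOMF exosome libraries, and 235, 252 and 301 CPM in control. The control range covers both exosome groups in part. The largest difference of a called member was that of CLK4, 0.24 (SE 0.16, edgeR adjusted p = 0.777), with a 95% interval from -0.09 to 0.57, and for HNRNPAB it was 0.17 (SE 0.10, edgeR adjusted p = 0.719), with an interval from -0.03 to 0.38. A p above the threshold does not show that both kinds of exosome acted alike: these intervals allow differences as large as many of the changes against control.

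In GRCh38 with the GENCODE 29 annotation, HNRNPAB spans chr5:178204507-178211163 on the plus strand, HNRNPM chr19:8444767-8489114 (plus), PRPF19 chr11:60890730-60906588 (minus), SRSF3 chr6:36594353-36605600 (plus), PRPF39 chr14:45084099-45116282 (plus), PRPF40B chr12:49568218-49644666 (plus) and CLK4 chr5:178602664-178630615 (minus). Each is a protein-coding gene in that annotation. Exons of PHYKPL overlap 9.14% of the exon bases of HNRNPAB, and those of COX20 15.6% of the exon bases of HNRNPU, in both cases on the opposite strand. The build behind the authors' counts is uncertain, so these positions come from the annotation and not from the expression table.

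To show what lies upstream of members that moved in either direction, the 120 bases before the transcription start used by RefSeq are printed for 3 members that were lower and 2 that were higher, from RefSeq promoter windows on GRCh38.p14, 5′ to 3′ on the strand of the gene. These starts differ from those of the GENCODE 29 spans above: the stretches of HNRNPM, PRPF40B and CLK4 lie inside the span of the gene, and those of HNRNPAB and SRSF3 end inside it. Capitals mark a CCAAT box (CCAAT on either strand, the site of NF-Y) or an E-box (CACGTG, the same on both strands, bound by factors such as MYC and USF). Every stretch printed holds a marked motif, but not every member that moved has one there. The 120 bases before the start of HNRNPR and of HNRNPU, both called lower in both comparisons, hold neither. In the longer windows described below, from 250 bases before to 50 after the start, both genes hold CCAAT.
HNRNPAB, chr5:178204413-178204532, plus strand: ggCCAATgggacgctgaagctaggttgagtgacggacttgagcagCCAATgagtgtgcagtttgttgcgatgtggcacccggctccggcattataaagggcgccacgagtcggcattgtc
HNRNPM, chr19:8444855-8444974, plus strand: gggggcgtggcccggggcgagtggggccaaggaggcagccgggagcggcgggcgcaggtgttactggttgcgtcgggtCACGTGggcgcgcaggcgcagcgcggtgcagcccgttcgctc
SRSF3, chr6:36594242-36594361, plus strand: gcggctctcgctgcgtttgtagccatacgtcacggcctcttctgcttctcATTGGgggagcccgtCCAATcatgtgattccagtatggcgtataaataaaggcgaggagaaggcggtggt
PRPF40B, chr12:49623441-49623560, plus strand: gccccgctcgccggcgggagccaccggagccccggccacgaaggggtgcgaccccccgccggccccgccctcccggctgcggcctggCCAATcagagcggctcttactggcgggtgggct
CLK4, chr5:178627051-178627170, minus strand: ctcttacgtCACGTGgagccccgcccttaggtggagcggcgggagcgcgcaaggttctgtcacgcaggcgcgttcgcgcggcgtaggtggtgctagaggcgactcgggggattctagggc

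HNRNPAB and SRSF3 each hold 2 CCAAT boxes in these stretches, PRPF40B holds 1, and HNRNPM and CLK4 hold an E-box and no CCAAT. Windows of 250 bases before to 50 after the start were at hand for 67 members and 10202 tested genes. In them CCAAT occurred in 41.8% of the members and 36.6% of all tested genes, and CACGTG in 14.9% and 10.2%. Among the 20 hnRNP genes with a window CCAAT occurred in 13 (65.0%), CACGTG in 7 (35.0%) and the ETS motif CCGGAAG in 3 (15%). Of the members called lower with CAF exosomes 11 of 17 with a window held CCAAT (64.7%), as did 10 of 20 called lower with hOMF exosomes (50.0%). Of those called higher, 1 of 6 with CAF exosomes and 1 of 5 with hOMF exosomes held CCAAT, and 3 and 2 of them CACGTG. Of those called lower, 2 held CACGTG in each comparison. The ETS motif was found in 32.8% of members and 19.5% of all tested genes. It was found in 6 of the members called lower and 1 of those called higher in each comparison. All motifs were searched on both strands, and none of the 3 contains another. These are matches of letters and not sites shown to be bound, and no test was made.

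Because splicing factor genes are themselves spliced in alternative ways, the length that the authors' values assign to each gene was also compared, a readout added after the values were seen. FPKM divides the count by an effective length averaged over the transcripts of the gene in proportion to their estimated share, so count and FPKM together give that length in each library, here centred on the median of all genes. It could be formed for 73 members and 8243 genes whose FPKM averaged at least 5 and whose count averaged at least 50. HNRNPA3, a close relative of hnRNP A1, had an effective length of 4027, 4144 and 4103 bases with CAF exosomes, 4020, 4093 and 4001 bases with hOMF exosomes, and 4370, 4420 and 4370 bases in control. The length was shorter in all exosome libraries, by a log2 ratio of -0.10 (SE 0.01, limma adjusted p = 0.0471) with CAF exosomes and -0.12 (SE 0.01, limma adjusted p = 0.0489) with hOMF exosomes, while the level of HNRNPA3 was not called (-0.02 and -0.02). It was the only member called, beside 0.146% and 0.0607% of the genes compared. The call was lost under 9 of 11 alternatives with CAF exosomes and all 11 with hOMF exosomes, with adjusted p from 0.0408 to 0.165 and from 0.0516 to 0.222, although the ratio stayed between -0.11 and -0.09 and between -0.13 and -0.11.

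SRSF10, an SR-related protein that represses splicing when dephosphorylated, had 4588, 4465 and 4680 bases with CAF exosomes, 4515, 4594 and 4527 bases with hOMF exosomes, and 4324, 4209 and 4220 bases in control. HNRNPA2B1, known from human T cells for sorting microRNAs into exosomes, had 2443, 2498 and 2362 bases with CAF exosomes, 2460, 2462 and 2282 bases with hOMF exosomes, and 2185, 2176 and 2200 bases in control. In both genes every exosome library was longer than every control library, but the limma adjusted p was 0.115 and 0.178 for SRSF10 and 0.183 and 0.293 for HNRNPA2B1. PRPF4B, TRA2A and SRSF2 were likewise longer in all exosome libraries and not called. The groups did not overlap for 12 members with CAF exosomes (9 longer, 3 shorter), 16.4% beside 10.3% of the genes compared, for 17 with hOMF exosomes (12 longer, 5 shorter), 23.3% beside 12.1%, and for 6 between the exosome groups, 8.22% beside 5.03%. Which transcripts moved is not in the table, and GENCODE 29 lists 4 coding transcripts of HNRNPA3, from 643 to 5688 bases.

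**Figure D4:**
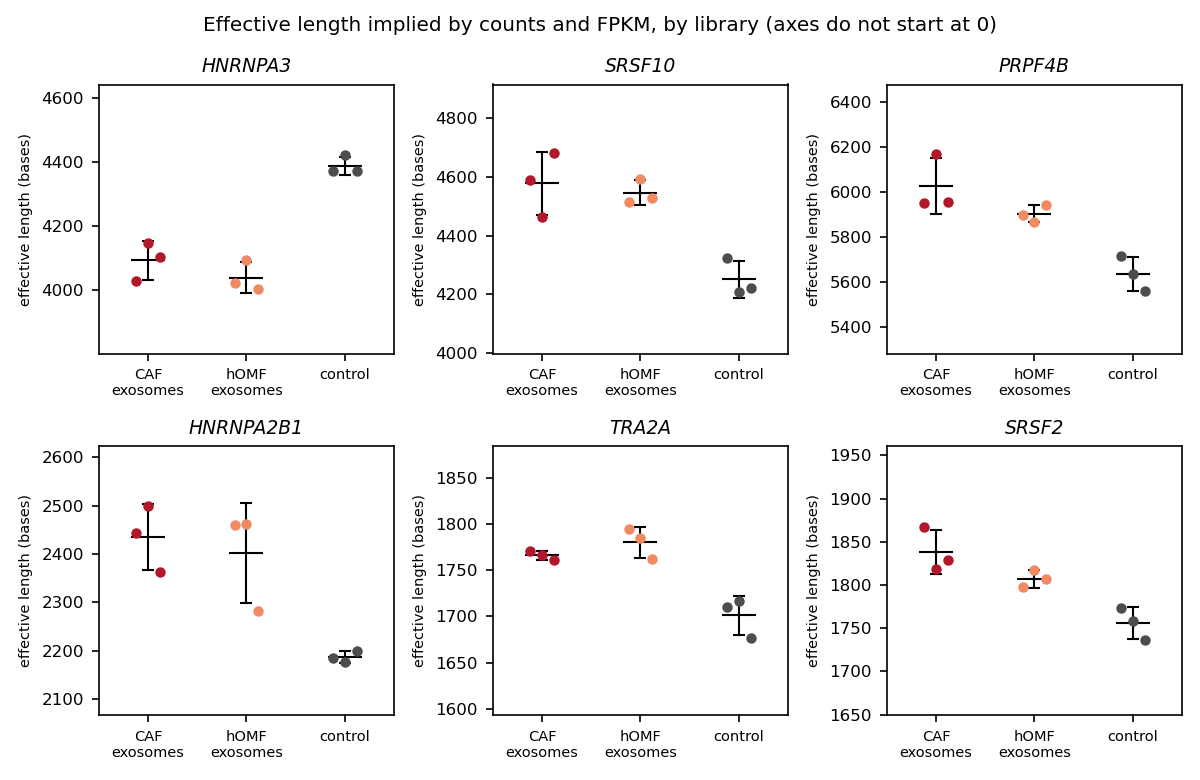
Effective length in bases implied by the authors' counts and FPKM for 6 members, by library (points) with group mean and SD (n = 3), for CAF exosomes, hOMF exosomes and control from left to right; axes do not start at 0. HNRNPA3 is shorter in all exosome libraries than in control, and the other 5 genes are longer.

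Among splicing genes outside the families, too, more were called lower than higher. Of 156 tested genes on 8 further lists, 8 were higher and 28 lower with CAF exosomes (23.1%, beside 18.2% of all tested genes), and 10 were higher and 32 lower with hOMF exosomes (26.9%, beside 23.2%), with medians of -0.10 and -0.09. Between the exosome groups 0 were called by edgeR or DESeq2. An unadjusted edgeR p under 0.05 was found for 7 of the 156, beside 947 of all 12470 tested genes. Without control replicate 3 the counts called fell to 14 with CAF exosomes and 22 with hOMF exosomes. Without control replicate 2 the count with hOMF exosomes fell to 20. Calls over all tested genes fell too when either library was left out. Among 39 other splicing regulators, 5 were higher and 10 lower with CAF exosomes (38.5%) and 6 and 8 with hOMF exosomes (35.9%). CIRBP, the cold-inducible RNA-binding protein, averaged 80.6 ± 3.84 CPM in CAF exosome libraries, 77.7 ± 8.38 CPM in hOMF exosome libraries and 46.7 ± 5.24 CPM in control (SD, n = 3 each), a change of 0.79 (SE 0.10) and 0.73 (SE 0.10).

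Of 25 proteins of the U1, U2, U4/U6 and U5 snRNPs outside the families, 1 was higher and 5 lower with CAF exosomes (24%, beside 18.2% of all tested genes). With hOMF exosomes 3 were higher and 8 lower (44%, beside 23.2%). LUC7L2, a U1-associated protein, was called higher with hOMF exosomes at 0.35 and stood at 0.20 with CAF exosomes (edgeR adjusted p = 0.0589), and TXNL4A of U5 was lower at -0.39 and -0.30. Of 23 exon junction complex and SR-related genes, 2 were higher and 4 lower with CAF exosomes (26.1%) and 1 and 4 with hOMF exosomes (21.7%). SRRM1, a coactivator that works with SR proteins, was higher at 0.31 and 0.35, and DDX39A, a helicase of mRNA export, lower at -0.49 and -0.55. Of 10 LSm proteins 3 were lower in each comparison (30%), among them LSM1 of the cytoplasmic decay ring (-0.53 and -0.45) and LSM4 (-0.30 and -0.29).

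Few kinases, phosphatase partners and importers of SR proteins other than the CLK genes were called. Of 10 such genes 0 were higher in either comparison. With CAF exosomes 1 was lower (10%, beside 18.2% of all tested genes) and with hOMF exosomes 2 (20%, beside 23.2%). The medians were -0.03 and -0.004, so these counts do not set the list apart from all genes. SRPK1, the cytoplasmic kinase that sends SR proteins into the nucleus, averaged 70.5 ± 1.45 CPM in CAF exosome libraries, 65.8 ± 1.25 CPM in hOMF exosome libraries and 83.9 ± 4.13 CPM in control (SD, n = 3 each), a change of -0.25 (SE 0.07) and -0.35 (SE 0.07). PPP1R8, a nuclear regulator of protein phosphatase 1, was called with hOMF exosomes only (-0.25, and -0.16 with CAF exosomes, edgeR adjusted p = 0.143). Of 14 genes of snRNP assembly 3 were lower in each comparison (21.4%, near the share of all tested genes). They included GEMIN4 at -0.32 and -0.39 and WDR77 at -0.28 and -0.33. Nonsense-mediated decay destroys the transcripts that SR and hnRNP genes make to limit themselves. Of 10 of its factors 2 were lower in each comparison (20%, also near the share of all tested genes). SMG5 stood at -0.37 and -0.43, and UPF2 at -0.30 with CAF exosomes and -0.17 with hOMF exosomes (edgeR adjusted p = 0.0983). Of 25 genes of the PRP19 complex and the catalytic steps 0 were called with CAF exosomes. An unadjusted edgeR p under 0.05 was found for 3 of them, beside 4094 of all 12470 tested genes. With hOMF exosomes PPIL1, a cyclophilin of the spliceosome, and the helicase gene DHX15 were lower (-0.36 and -0.28), 8% of that list.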

How the data were processed

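Per the labels' protocols, poly(A) RNA of RIN above 7.0 was made into dUTP libraries and read on an Illumina NovaSeq. The authors deposited 1 table with, per the file headers, an expected count, an FPKM and a TPM value for each gene and library, and 0 value columns were left without a sample. Bowtie2 2.2.5 and RSEM 1.2.8 are the tools in the submitters' processing notes, and RSEM shares reads between similar genes in its estimated counts. The build those notes name is a mouse one although the identifiers are human, so it is uncertain. For annotation and strand setting, nothing was given in the sources used here.

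The expected counts (90.5% to 92.0% of values in a library whole to within 0.001) were rounded. Genes were kept by filterByExpr of edgeR 4.0.16 (minimum count 10, minimum total 15), scaled by TMM and fitted over all 9 libraries with group as the only term (glmQLFit, two-sided glmQLFTest, Benjamini-Hochberg, 0.05), in R 4.3.3. The fit was checked on simulated counts. Replicate libraries differed by more than sampling noise (chi-square per degree of freedom 3.16 to 11.5). Each counted as 1 sample, although this spread may be technical and does not show that the libraries came from separate cultures. Effective length, count × 10 to the power 9 / (FPKM × library total), was tested with limma 3.58.1 on the log2 scale. Alternatives were RLE size factors, library totals, no filter, DESeq2 1.42.0, limma on log2(FPKM + 1) or (FPKM + 0.1), the compared groups alone, a GC content and transcript length correction (both known for 99.1% of tested genes and all 75 members), a replicate block, and each library left out, 20 in all. Levels of 3 libraries carry an SD.

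Named genes are, per comparison, up to 10 called members with the largest rise and 10 with the largest fall, the most abundant member of each family by FPKM, and up to 2 called genes of smallest p in each of 8 lists of other splicing genes. Of these, 1 gene is not reported here. Further members named beside them were chosen after their values were seen. The members and the lists were chosen with earlier results of these data known.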

Additional observations from a re-analysis of the deposited data

How the results depend on the processing

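Of the 27 calls with CAF exosomes 8 held under all 20 alternatives, as did 12 of the 28 with hOMF exosomes, and 0 changed sign. HNRNPK and U2AF2 (CAF exosomes) and PRPF8 and SRSF1 (hOMF exosomes) lost their calls under more than 10. Where values moved as follows, the cause was not tested. With CAF exosomes, limma on log2(FPKM + 1) without a filter called 1438 genes in place of 2264 and 10 members lower in place of 20, and gave members a median of -0.0731, the value with the filter too, while a pseudocount of 0.1 gave -0.0741. The other splicing lists had 23, 22 and 15 calls (limma with pseudocounts 1 and 0.1, and no filter) in place of 36. With hOMF exosomes, library totals gave 12 members higher and 14 lower in place of 6 and 22 and a median of -0.0542, beside 0.06 over all genes. Limma gave 10 higher and 14 lower with either pseudocount, 9 lower without a filter, medians of -0.0632, -0.0644 and -0.0632, and 27, 27 and 19 calls on the other lists in place of 42. The GC content and transcript length correction gave a median of -0.1425, and with the replicate block -0.1398 and 10 members higher. That correction turned the calls over all genes towards lower (1336 higher and 1733 lower with CAF exosomes, 1559 and 2158 with hOMF exosomes), while library totals turned them towards higher (1425 and 832, 2006 and 989), beside 1186 and 1078, and 1475 and 1421. Between the exosome groups 2 of all genes were called, against 32 with DESeq2, 10 with the GC content and length correction, 16 with the block added, and 0 with library totals, limma in 3 forms or these groups alone. No member was among them under any of these settings. Effective length calls were 4 and 0 without centring in place of 12 and 5, and 0 with hOMF exosomes at a mean FPKM of at least 10.

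Leaving out 1 library at a time gave, with CAF exosomes, 1343 to 2389 genes, 2 to 9 members higher, 9 to 20 lower, medians of -0.125 to -0.0643, 14 to 38 genes of the other lists and 0 to 13 effective lengths. With hOMF exosomes it gave 1695 to 3096 genes, 4 to 9 members higher, 13 to 23 lower, medians of -0.1396 to -0.0761, 20 to 45 genes of the other lists and 0 to 6 effective lengths, and between the exosome groups 0 to 8 genes. Same-numbered libraries did not deviate together (correlations of -0.15 to 0.14, beside -0.14 to 0.18 between differently numbered ones). With 3 libraries per group this cannot show whether the numbers pair the samples. The replicate block called 7 members higher and 19 lower with CAF exosomes, 8 and 22 with hOMF exosomes and 0 between the exosome groups. Counts of U2AF1, U2AF1L5 and HNRNPA1L2 were mostly fractional, so their values depend on how reads were split between near-identical copies, which depth does not settle.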
